A study of Homo sapiens with 12 samples.

Results

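The 10 genes described here encode the HLA class II antigen-presentation machinery and its master regulator, measured in the human lung adenocarcinoma line PC9. They are the chains HLA-DRA, HLA-DRB1, HLA-DPA1, HLA-DPB1, HLA-DQA1 and HLA-DQB1, the peptide-loading factors HLA-DMA and HLA-DMB, the invariant chain CD74 and the transactivator CIITA. They were chosen by gene symbol, all 10 had a row, and they are 10 of the 62754 Ensembl identifiers in the deposited table. Polyadenylated RNA was sequenced in 12 libraries, 3 per group, from a subclonal PC9 line that carries mutant EGFR and responds to the EGFR kinase inhibitor erlotinib. Untreated cells with intact TDP1 (untreated WT) were the reference. TDP1 WT cells kept for 7 days in 1 µM erlotinib are the drug-tolerant cells (DTC), and those kept for 28 days in the same dose are the drug-tolerant expanded cells (DTEC). The last group was a TDP1 knockout line, KO2, left untreated (KO). TDP1 is a DNA repair enzyme that removes trapped topoisomerase I from DNA. All libraries were labelled as 1 batch. The replicate cultures of a group were separated from the same starting flask and grown apart, so p-values measure the spread between such cultures of 1 line. The knockout was represented by 1 line.

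HLA class II molecules are surface heterodimers that show peptides from the endosomal pathway to CD4+ T cells. They are made constitutively by professional antigen-presenting cells such as B cells and dendritic cells, and in the lung also by alveolar type 2 cells. New alpha and beta chains bind CD74, which blocks the peptide groove and directs the complex to endosomes, where cathepsins trim CD74 and the HLA-DM heterodimer exchanges its remnant for peptide. Transcription of these genes depends on CIITA, a coactivator that does not bind DNA itself but docks on the RFX complex, CREB-family factors and NF-Y, which sit on conserved X and Y boxes close to the gene start. In most non-immune cells CIITA is low and is induced by interferon-gamma through JAK kinases and IRF1.

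Stretches of promoter are shown for the genes whose changes carry the result, HLA-DMA, HLA-DMB and CD74, and for HLA-DRB1 as a gene that stayed near 0. Each is the 100 bases from -130 to -31 relative to the RefSeq gene start on GRCh38.p14, 5′ to 3′ on the gene's strand. All 4 genes lie on the minus strand, at chr6:32953128-32953227, chr6:32941059-32941158, chr5:150412941-150413040 and chr6:32589879-32589978 in the order below. Capitals mark matches to an X-box-like string (AGNNACNGA) and to the inverted CCAAT string of a Y box (ATTGG, or CCAAT when it lies on the other strand).
HLA-DMA: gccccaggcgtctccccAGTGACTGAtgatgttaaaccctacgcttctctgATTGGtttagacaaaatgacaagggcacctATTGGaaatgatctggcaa
HLA-DMB: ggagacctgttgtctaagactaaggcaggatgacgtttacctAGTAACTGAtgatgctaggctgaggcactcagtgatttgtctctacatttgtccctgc
CD74: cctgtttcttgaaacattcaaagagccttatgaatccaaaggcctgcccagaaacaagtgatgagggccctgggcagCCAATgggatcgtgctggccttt
HLA-DRB1: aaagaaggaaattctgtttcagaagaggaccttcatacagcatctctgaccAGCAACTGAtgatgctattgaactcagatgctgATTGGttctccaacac

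The X-box-like match lay at -113 to -105 in HLA-DMA, at -88 to -80 in HLA-DMB and at -79 to -71 in HLA-DRB1. HLA-DMA had ATTGG at -79 to -75 and again at -49 to -45, HLA-DRB1 had it at -46 to -42, and the CD74 match lay on the other strand at -53 to -49. In HLA-DMB a CCAAT lay at -22 to -18, past the end of the printed stretch, and shared its last base with a further X-box-like match on the other strand at -18 to -10. Promoter entries were found for 8 of the 10 genes (9 entries, 2 for HLA-DPA1), and HLA-DRA and CIITA had none. In the 250 bases before the start, searched on both strands, 5 genes held both strings: HLA-DRB1, HLA-DQA1, HLA-DQB1, HLA-DMA and HLA-DMB. HLA-DPB1 and CD74 held ATTGG alone, 1 HLA-DPA1 entry held the X-box-like string alone and the other held neither. Looser forms of the X box were not searched for, so a missing match, as in CD74, does not mean a missing X box. Across 35116 promoters of the same length, 12.3% held the X-box-like string, 32.0% held ATTGG and 3.96% held both. The letters of the X-box-like string were set after these promoters had been read, so its frequency in them is a description. The promoters of genes that were detected and of genes that stayed near 0 both carried these letters.

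**Figure D1:**
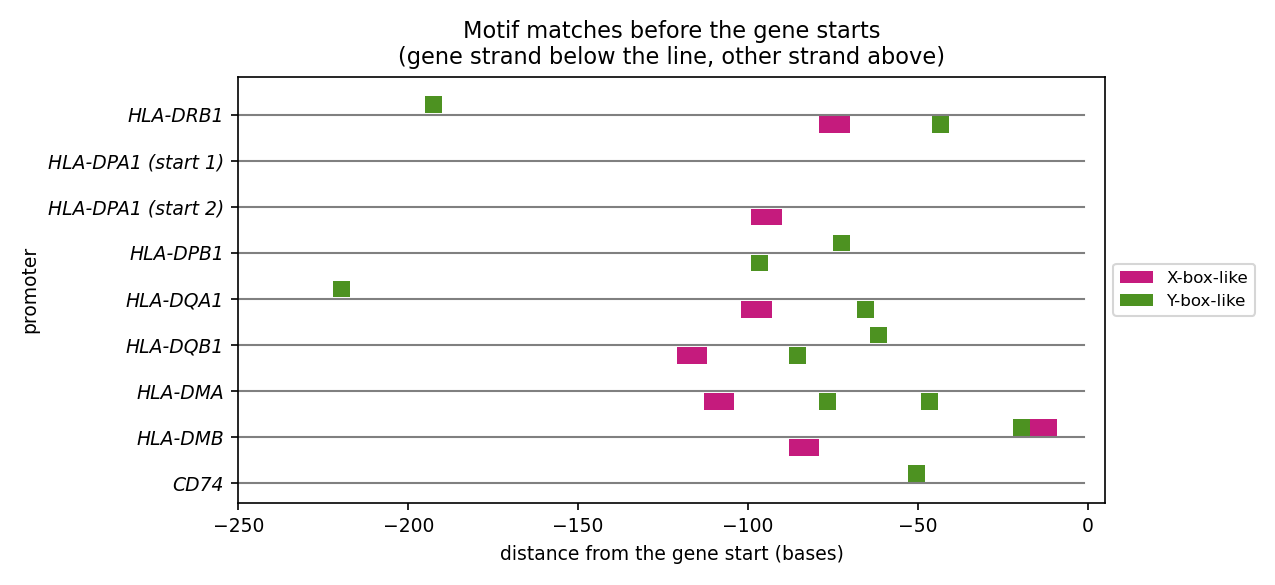
Positions of X-box-like and Y-box-like (inverted CCAAT) string matches in the 250 bases before the RefSeq starts of 8 genes (9 entries, 2 of them for HLA-DPA1), with distance from the start in bases on the x axis. Bars below a line are matches on the gene's strand and bars above it matches on the other strand. HLA-DRB1, HLA-DQA1, HLA-DQB1, HLA-DMA and HLA-DMB have both kinds.

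The 12 libraries held between 25572691 and 38373679 estimated counts each. A gene with at most 3 counts in each of a group's libraries was taken to be at the floor of detection. On the CPM scale, the read count relative to the TMM-scaled library total, 3 counts equalled 0.0824 to 0.115. The filter on low counts kept 17115 genes for testing. TDP1, the gene targeted in KO, stood at 10.1, 11.3 and 11.0 CPM in KO against 28.1, 25.1 and 25.8 CPM in untreated WT (log2 fold change -1.29, edgeR adjusted p = 1.3e-05). Mitochondrial genes took 4.43% to 5.41% of counts in DTC and 1.82% to 2.78% in the other libraries.

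All 10 genes were at or close to 0 in untreated WT, and the changes in erlotinib were uneven across the set. CIITA, CD74 and HLA-DM RNA rose in erlotinib, whereas the 6 chains that form the peptide-presenting HLA-DR, HLA-DP and HLA-DQ dimers had at most 18 reads in any library. The plot of counts in each library shows both features. Of the 10 genes, HLA-DMA, HLA-DMB, CD74 and CIITA passed the filter on low counts and were tested, and the other 6 were not. Since the filter keeps a gene that is high in only some groups, the count of tested genes that rose is not a count over all 10. These are bulk libraries, in which more RNA per cell and more cells that carry the RNA cannot be told apart.

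**Figure D2:**
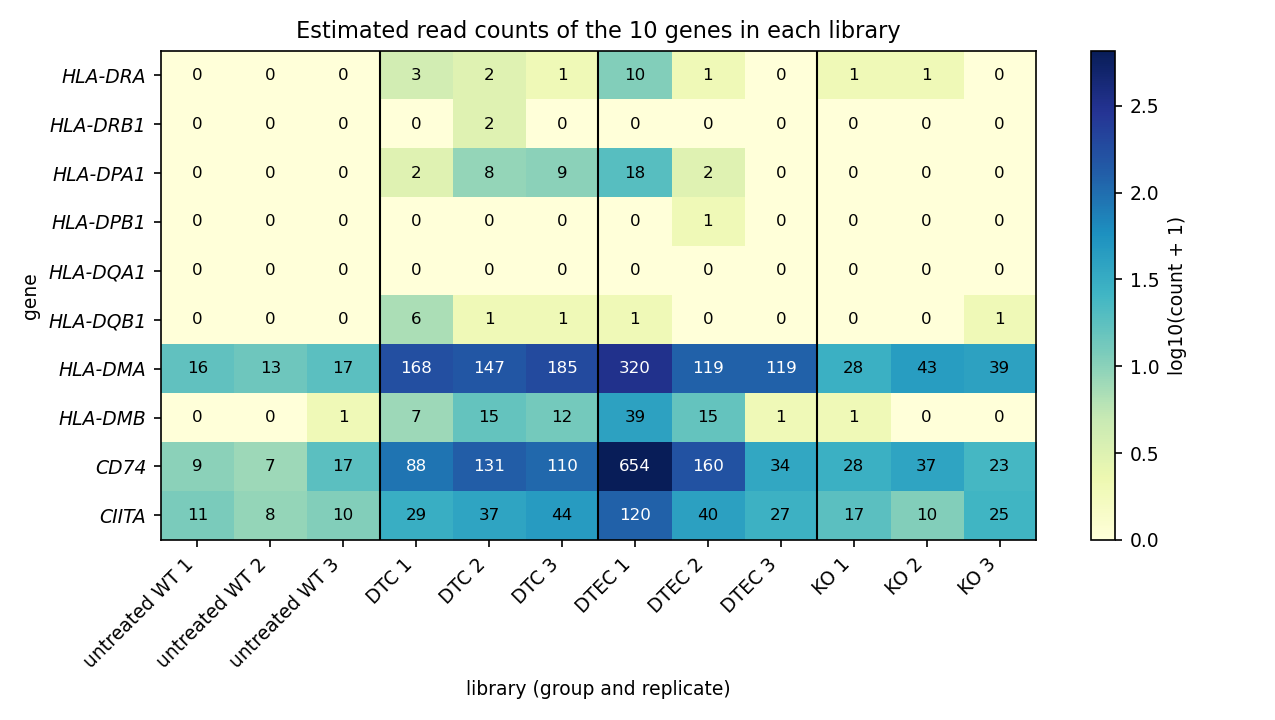
Estimated read counts, rounded, of the 10 genes (rows) in the 12 libraries (columns, by group and replicate), with the color on a log10(count + 1) scale. The 6 peptide-presenting chains never exceed 18 counts, and the highest value is 654 counts of CD74 in DTEC replicate 1.

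The peptide-presenting chains are described by counts because none passed the filter on low counts. In the order of the replicate numbers, their counts summed to 0, 0 and 0 for untreated WT and to 1, 1 and 1 for KO. The sums were 11, 13 and 11 for DTC and 29, 4 and 0 for DTEC. All 3 DTC libraries exceeded every library of untreated WT and KO, and the DTEC libraries spanned from no read to the highest sum of the 12. HLA-DPA1 (chr6:33064569-33080775, GRCh38), the alpha chain of HLA-DP, supplied most of these reads in DTC and DTEC. Untreated WT and KO had no read of it, and it reached 2, 8 and 9 in DTC, and 18, 2 and 0 in DTEC. Against a floor of 3 counts per library its mean was at least 2.04-fold higher in DTC and at least 2.25-fold higher in DTEC, and without DTEC replicate 1 its DTEC mean was below that floor. HLA-DPA1 was tested in 6 of 21 alternatives and was called higher than untreated WT in 5 of them, both in DTC and in DTEC: without a low-count filter, by DESeq2, and without DTC replicate 1, DTEC replicate 2 or KO replicate 1. Over those 6 the adjusted p was 0.00171 to 0.0667 in DTC and 0.0017 to 0.0505 in DTEC. The first 2 settings did not use the filter, and in the others the gene passed it only with a library left out. It enters through the groups where it is high, so these calls add no separate evidence of a rise. HLA-DPB1 (chr6:33075926-33087201), its beta-chain partner, had 1 read in DTEC replicate 2 and none in the other libraries.

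HLA-DRA (chr6:32439842-32445046), the invariant alpha chain of HLA-DR, had no read in untreated WT and 1, 1 and 0 counts in KO, against 3, 2 and 1 counts in DTC and 10, 1 and 0 counts in DTEC. Only DTEC replicate 1 was above the floor, and HLA-DRA was called higher in DTEC in 1 of the 2 alternatives that tested it, without a low-count filter (edgeR adjusted p = 0.0376). HLA-DRB1 (chr6:32578769-32589848), the polymorphic HLA-DR beta chain, had 2 reads in DTC replicate 2 and none elsewhere. HLA-DQB1 (chr6:32659467-32668383) had 6, 1 and 1 counts in DTC, 1, 0 and 0 in DTEC, 0, 0 and 1 in KO and none in untreated WT. HLA-DQA1 (chr6:32628179-32647062) had no read in any of the 12 libraries. Counts of such polymorphic genes depend on how well the alleles match the reference, and the alleles of this line were not analysed here.

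CIITA (ENSG00000179583, chr16:10866222-10943021), the transactivator, rose at both times in erlotinib from a low level. It stood at 0.329, 0.270 and 0.288 CPM in untreated WT (11, 8 and 10 counts), at 0.980, 1.09 and 1.29 CPM in DTC (29, 37 and 44 counts) and at 3.65, 1.53 and 0.742 CPM in DTEC (120, 40 and 27 counts). Every DTC and DTEC library was above every untreated WT library. The log2 fold change was 1.91 in DTC (SE 0.524, 95% interval 0.78 to 3.03, edgeR adjusted p = 0.00504) and 2.72 in DTEC (SE 0.517, 95% interval 1.61 to 3.83, edgeR adjusted p = 0.000528).

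CD74 (ENSG00000019582, chr5:150401637-150412929), the invariant chain that chaperones class II dimers, had the largest DTEC mean of the 10 genes and a wide spread there. It stood at 0.269, 0.236 and 0.490 CPM in untreated WT (9, 7 and 17 counts), at 2.97, 3.86 and 3.23 CPM in DTC (88, 131 and 110 counts) and at 19.9, 6.11 and 0.934 CPM in DTEC (654, 160 and 34 counts). The 3 DTC libraries were close together, while DTEC replicate 3 was below all of them and replicates 1 and 2 were above. No library of either group overlapped untreated WT. The log2 fold change was 3.31 in DTC (SE 0.926, 95% interval 1.27 to 5.34, edgeR adjusted p = 0.00785) and 4.73 in DTEC (SE 0.919, 95% interval 2.70 to 6.75, edgeR adjusted p = 0.0012).

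HLA-DMA (ENSG00000204257, chr6:32948613-32969094), the alpha chain of the peptide exchange factor HLA-DM, rose at both times. It stood at 0.478, 0.438 and 0.490 CPM in untreated WT (16, 13 and 17 counts), at 5.68, 4.33 and 5.42 CPM in DTC (168, 147 and 185 counts) and at 9.74, 4.55 and 3.27 CPM in DTEC (320, 119 and 119 counts). No erlotinib library overlapped untreated WT, and the DTC range lay inside the DTEC range. The log2 fold change was 3.44 in DTC (SE 0.378, 95% interval 2.63 to 4.25, edgeR adjusted p = 1.84e-06), a ratio of mean CPM of 11.0. In DTEC it was 3.63 (SE 0.378, edgeR adjusted p = 2.83e-06), a ratio of 12.5.

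HLA-DMB (ENSG00000242574, chr6:32934629-32941070), the beta chain of HLA-DM, was scarce throughout. Untreated WT had 0, 0 and 1 counts and KO had 1, 0 and 0. DTC had 7, 15 and 12 counts, and DTEC had 39, 15 and 1. All DTC libraries and DTEC replicates 1 and 2 were above untreated WT, whereas DTEC replicate 3 had the same single read as the highest untreated WT library. Against a floor of 3 counts per library, HLA-DMB was at least 3.71-fold higher in DTC (edgeR adjusted p = 0.00704) and at least 6.45-fold higher in DTEC (edgeR adjusted p = 0.00267). With at most 1 count in any untreated WT or KO library, HLA-DMB passed the low-count filter only through the erlotinib libraries. Its calls therefore add no separate evidence of a rise. Without DTEC replicate 1 the DTEC bound was 3.25-fold.

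**Figure D3:**
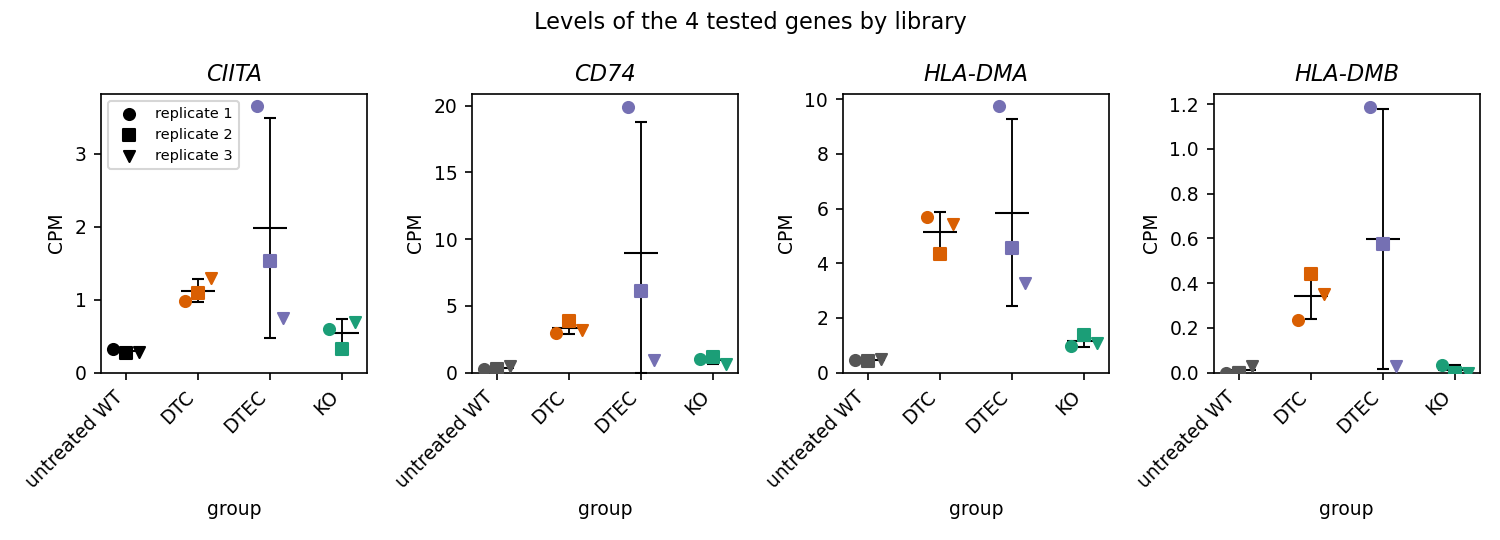
CPM of CIITA, CD74, HLA-DMA and HLA-DMB (1 panel each, linear axis from 0) in the 3 libraries of each group, with replicates 1, 2 and 3 as circle, square and triangle. The black bar is the group mean and the error bar 1 SD, drawn down to 0 where the SD exceeds the mean. DTEC replicate 1 is the highest library in all 4 panels and DTEC replicate 3 the lowest of its group.

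All 4 tested genes were thus called higher in DTC, where 34.0% of all tested genes were called higher and 33.3% lower. The 3 DTC libraries did not overlap untreated WT for any of the 4, as was the case, in the higher direction, for 35.1% of all tested genes. In DTEC all 4 were called higher than untreated WT, beside 26.0% of all tested genes called higher and 26.3% lower. The DTEC libraries did not overlap untreated WT for 3 of the 4 (not for HLA-DMB), beside 31.1% of all tested genes with every DTEC library higher. Both comparisons use the same untreated WT libraries. HLA-DMB, counted in both, passed the low-count filter only through the erlotinib libraries. Erlotinib changed a large share of the transcriptome, and a call alone is therefore common among tested genes in either direction.

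Levels can be compared between genes only per length, and are given here as group means of CPM per kilobase of the median coding transcript. In DTC the order was HLA-DMA at 4.58 (3.85 to 5.06 over 3 libraries), CD74 at 2.95 (2.61 to 3.39), HLA-DMB at 0.246 (0.169 to 0.316), CIITA at 0.240 (0.211 to 0.277), HLA-DPA1 at 0.111 (0.0397 to 0.155), HLA-DQB1 at 0.0526 (0.0177 to 0.123) and HLA-DRA at 0.0494 (0.0229 to 0.0792). HLA-DMA was above CD74 in every DTC library, and CD74 was above HLA-DMB and CIITA in every DTC library. The ranges of HLA-DMB and CIITA overlapped, as did those of HLA-DPA1, HLA-DQB1 and HLA-DRA. In DTEC the order of means was CD74 at 7.90 (0.821 to 17.5), HLA-DMA at 5.21 (2.91 to 8.68), HLA-DMB at 0.427 (0.0197 to 0.850), CIITA at 0.424 (0.159 to 0.785), HLA-DPA1 at 0.122 (0 to 0.322) and HLA-DRA at 0.0893 (0 to 0.238). There the ranges of CD74 and HLA-DMA overlapped, and those of HLA-DMB, CIITA, HLA-DPA1 and HLA-DRA overlapped one another. The highest HLA-DMB library was also above the lowest CD74 library, so in DTEC only HLA-DMA was apart from the 4 lower genes. The HLA-DM alpha chain was far above the beta chain in both groups, although HLA-DM acts as a dimer of 1 each.

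The DTEC libraries differed among themselves for these genes far more than the DTC libraries did. The highest DTEC library divided by the lowest was 43.2 for HLA-DMB, 21.3 for CD74, 4.93 for CIITA and 2.98 for HLA-DMA. The same ratio in DTC was 1.87 for HLA-DMB and at most 1.32 for each of the other 3 genes. Among 15652 genes with a mean of at least 0.3 CPM and no zero in DTEC, the median ratio was 1.25. A ratio as large as that of CD74 was reached by 12 of them (0.0767%), that of HLA-DMB by 3 (0.0192%), that of CIITA by 142 (0.907%) and that of HLA-DMA by 451 (2.88%). These counts include the members themselves, and the lowest DTEC library of HLA-DMB holds 1 read. All 4 tested genes ran in the order replicate 1, replicate 2, replicate 3, an order that 28.2% of the 17115 tested genes shared.

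**Figure D4:**
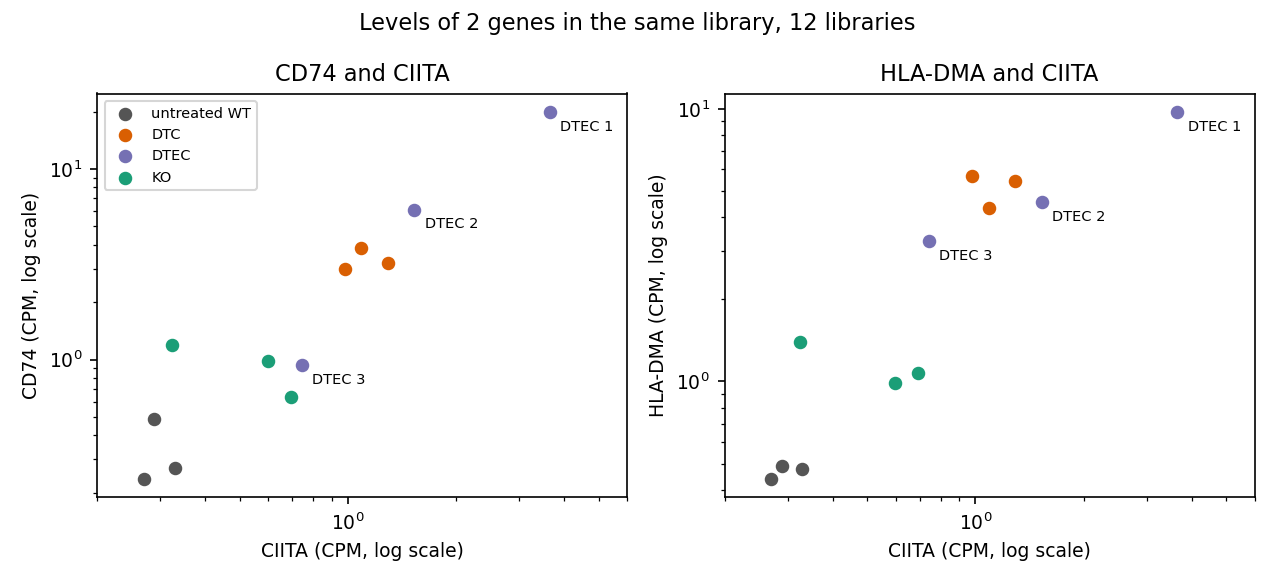
CD74 (left) and HLA-DMA (right) on the y axis against CIITA on the x axis, in CPM on log scales, with 1 point per library and color by group. The DTEC libraries are spread from 0.742 to 3.65 CPM of CIITA and from 0.934 to 19.9 CPM of CD74, while untreated WT sits at the lower left and DTC between DTEC replicates.

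DTEC against DTC compares the expanded cells at 28 days with the tolerant cells at 7 days. The longer time in erlotinib and the expansion cannot be told apart. None of the 4 tested genes was called by edgeR, beside 28.8% of all tested genes called higher in DTEC and 26.6% lower. None of the 4 had an unadjusted p under 0.05, beside 60.2% of all tested genes in either direction. The log2 fold change was 0.19 for HLA-DMA (SE 0.307, 95% interval -0.47 to 0.85, edgeR adjusted p = 0.625). It was 0.77 for HLA-DMB (SE 0.786, 95% interval -0.91 to 2.46, edgeR adjusted p = 0.426). It was 1.42 for CD74 (SE 0.723, 95% interval -0.17 to 3.01, edgeR adjusted p = 0.118) and 0.81 for CIITA (SE 0.454, 95% interval -0.16 to 1.79, edgeR adjusted p = 0.144). The intervals include both no change and, for CD74, HLA-DMB and CIITA, a further rise of more than 1 log2 unit. Single DTEC libraries set these values. Without replicate 1 the log2 fold change was 0.03 for CD74, -0.01 for CIITA, -0.42 for HLA-DMA and -0.30 for HLA-DMB. Without replicate 3 CD74 (1.92, edgeR adjusted p = 0.00137) and CIITA (1.17, edgeR adjusted p = 0.0216) were called higher in DTEC than in DTC.

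Against untreated WT the DTEC calls held without replicate 1, at smaller values. Without it the log2 fold change was 3.36 for CD74 (edgeR adjusted p = 0.000899), 1.92 for CIITA (edgeR adjusted p = 0.00256) and 3.06 for HLA-DMA (edgeR adjusted p = 1.08e-06), and HLA-DMB was still called (edgeR adjusted p = 0.018).

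In the untreated TDP1 knockout line the tested genes were called neither higher nor lower by edgeR. HLA-DMA stood at 0.983, 1.39 and 1.08 CPM in KO (28, 43 and 39 counts), all above the 3 untreated WT libraries. Its log2 fold change was 1.29 (SE 0.403, 95% interval 0.42 to 2.15, unadjusted p = 0.0065, edgeR adjusted p = 0.0981). CD74 stood at 0.983, 1.20 and 0.636 CPM (28, 37 and 23 counts), also without overlap, with a log2 fold change of 1.46 (SE 1.01, 95% interval -0.76 to 3.68, edgeR adjusted p = 0.52). CIITA stood at 0.597, 0.324 and 0.691 CPM (17, 10 and 25 counts), and its lowest KO library fell inside the untreated WT range, with a log2 fold change of 0.86 (SE 0.55, 95% interval -0.32 to 2.04, edgeR adjusted p = 0.473). HLA-DMB was at the floor in both groups, so no fold is given.

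Across all tested genes 2.76% were called higher and 1.55% lower in KO. Every KO library was above every untreated WT library for 15.8% of them, and this held for 2 of the 4 tested members, HLA-DMA and CD74. At an unadjusted p under 0.05, 1 of the 4 passed, HLA-DMA, beside 16.6% of all tested genes in either direction. The call in KO depended on the fit: when only the 6 libraries compared entered it, both HLA-DMA (edgeR adjusted p = 0.0165) and CD74 (edgeR adjusted p = 0.0286) were called higher, and DESeq2 called HLA-DMA (adjusted p = 0.0352). HLA-DMA was also called without DTEC replicate 1 (edgeR adjusted p = 0.0106) or without DTEC replicate 3 (edgeR adjusted p = 0.0393).

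Of the other class II loci, 7 of 9 symbols were in the table under 8 identifiers, and none was tested. HLA-DRB5, HLA-DQA2, HLA-DQB2, HLA-DOA and HLA-DPB2 had no read in any library. HLA-DOB, which encodes a chain of the HLA-DM inhibitor HLA-DO, reached 18, 34 and 8 counts in DTC. It had 5, 3 and 3 counts in untreated WT, and 5, 2 and 5 counts in DTEC against 2, 0 and 7 counts in KO. Its DTC libraries were above all the others. Its partner HLA-DOA was at 0 in those same libraries.

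Among the 8 genes of the promoter-bound complex on which CIITA docks, 1 rose, 3 fell and 4 were not called in DTC (median log2 fold change -0.07, against 0.06 over all tested genes). In DTEC 2 rose, 1 fell and 5 were not called (median -0.01, against 0.02). Among all tested genes, 34.0% were called higher and 33.3% lower in DTC, and 26.0% and 26.3% in DTEC. RFX5, the DNA-binding subunit of the RFX complex, stood at 22.4, 20.4 and 20.5 CPM in untreated WT, 46.3, 33.3 and 36.8 in DTC and 35.8, 34.0 and 36.9 in DTEC. It rose by a log2 fold change of 0.88 in DTC (SE 0.118, edgeR adjusted p = 1.24e-05) and 0.75 in DTEC (SE 0.118, edgeR adjusted p = 1e-04). RFXAP, another RFX subunit, rose in DTEC (1.22, SE 0.268, edgeR adjusted p = 0.00161) and had 0.53 in DTC (edgeR adjusted p = 0.1). The third subunit, RFXANK, had -0.09 and -0.05 and was not called. NFYA, a subunit of the CCAAT-binding factor NF-Y, fell in DTC (-0.58, edgeR adjusted p = 0.000526) and had -0.11 in DTEC (edgeR adjusted p = 0.43). None of the 8 was called in KO.

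Of the 12 genes on the interferon-gamma route to CIITA, 11 were tested, and IFNG itself, the cytokine gene, had no read in any library. In DTC 5 rose, 2 fell and 4 were not called (median 0.27, against 0.06). In DTEC against untreated WT 5 rose, 5 fell and 1 was not called (median -0.06, against 0.02). The shares of all tested genes were 34.0% called higher and 33.3% lower in DTC, and 26.0% and 26.3% in DTEC. IRF1, a transcription factor that acts on the CIITA promoter, stood at 15.5, 16.1 and 13.6 CPM in untreated WT, 42.0, 34.0 and 37.8 in DTC and 21.1, 20.0 and 19.0 in DTEC. It rose by 1.33 in DTC (SE 0.111, edgeR adjusted p = 1.03e-07) and by 0.41 in DTEC (SE 0.111, edgeR adjusted p = 0.00597), and was lower in DTEC than in DTC (-0.92, edgeR adjusted p = 8.13e-06). IFNGR1, the ligand-binding receptor chain, followed the same order, with log2 fold changes of 2.36 in DTC (edgeR adjusted p = 2.24e-08) and 0.47 in DTEC (edgeR adjusted p = 0.0247). For CIITA and CD74 the DTEC mean was above the DTC mean, a difference that was not called.

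JAK2, a receptor-bound kinase, had 0.27 in DTC (edgeR adjusted p = 0.121) and fell in DTEC (-0.64, edgeR adjusted p = 0.00305). IFNGR2, the second receptor chain, had 0.21 in DTC (edgeR adjusted p = 0.0572) and rose in DTEC (0.91, edgeR adjusted p = 2.23e-06). SOCS1, a feedback inhibitor of JAK kinases, rose in DTC (1.20, edgeR adjusted p = 0.0165) and fell in DTEC (-1.13, edgeR adjusted p = 0.0495). The list also holds SOCS3 and PTPN2, which like SOCS1 act against this signalling, so its signs need not agree. The 2 genes that fell in DTC were SOCS3 (-1.94, edgeR adjusted p = 1.4e-08) and PTPN2 (-0.50, edgeR adjusted p = 0.00199). IFNGR1, IRF1, JAK1, IRF2 and SOCS1 rose there. SOCS3, PTPN2, JAK1 and IRF2 were named after their values were seen. In DTEC the list did not move one way, with IFNGR2 higher and JAK2 lower. None of its 11 tested genes was called in KO, where IRF1 had 0.40 (edgeR adjusted p = 0.0612).

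Of 10 endosomal processing genes, 6 rose, 3 fell and 1 was not called in DTC (median 0.40, against 0.06). In DTEC 5 rose, 1 fell and 4 were not called (median 0.34, against 0.02). These counts stand beside 34.0% of all tested genes called higher and 33.3% lower in DTC, and 26.0% and 26.3% in DTEC. CTSS, the cathepsin that carries out the last trimming of CD74 in professional antigen-presenting cells, stood at 0.329, 0.337 and 0.808 CPM in untreated WT, 13.6, 16.9 and 17.7 in DTC and 3.81, 2.83 and 1.37 in DTEC. It rose by 5.00 in DTC (SE 0.384, edgeR adjusted p = 7.06e-08) and 2.41 in DTEC (SE 0.392, edgeR adjusted p = 0.000175), and was lower in DTEC than in DTC (-2.60, edgeR adjusted p = 1.48e-05). CTSL, which can take that step in other cells, went from 188, 167 and 160 CPM in untreated WT to 89.4, 63.8 and 83.9 in DTC and 258, 218 and 226 in DTEC. It fell in DTC (-1.12, edgeR adjusted p = 1.84e-06) and rose in DTEC (0.45, edgeR adjusted p = 0.00703), the reverse order of CTSS.

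LGMN, an asparaginyl endopeptidase of the same compartment, fell in DTC (-0.60, edgeR adjusted p = 4.7e-05) and had 0.07 in DTEC. IFI30, the lysosomal thiol reductase that opens disulfide bonds in antigens, rose in DTC (0.38, edgeR adjusted p = 0.00325) and fell in DTEC (-0.87, edgeR adjusted p = 5.78e-06). In KO 1 of the 10 was called, beside 2.76% of all tested genes called higher there. It was CTSH, a further cathepsin, which was higher (0.72, edgeR adjusted p = 0.00903) and was named after its values were seen.

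**Figure D5:**
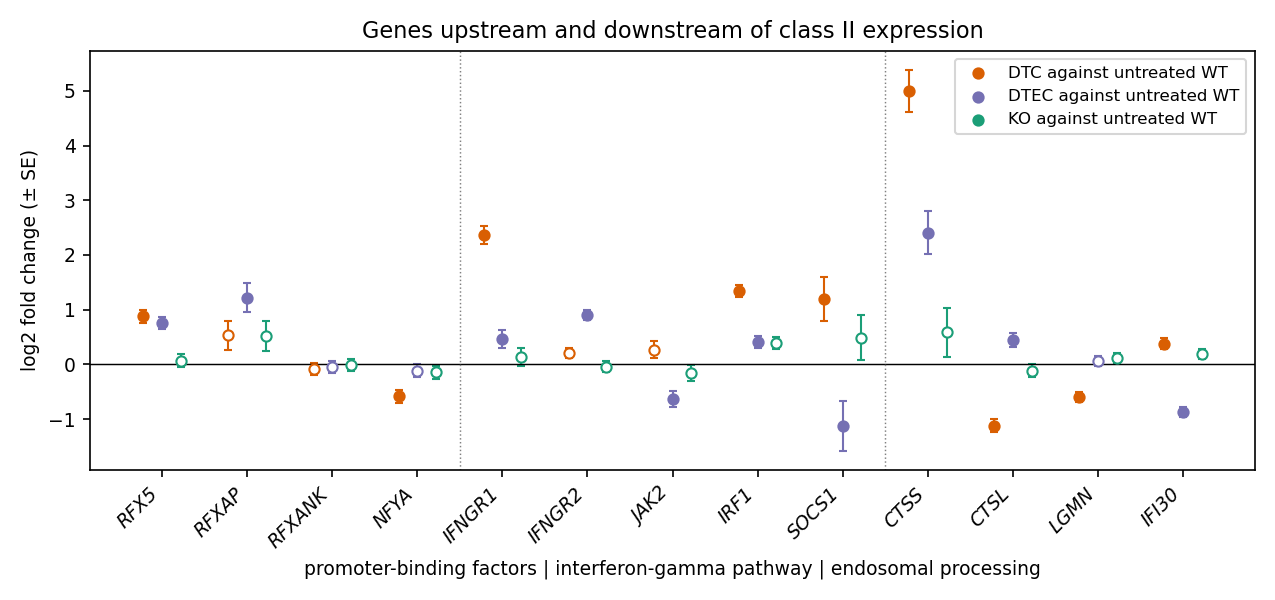
Log2 fold changes against untreated WT (y axis, error bars 1 SE) of 13 genes of class II transcription, interferon-gamma signalling and endosomal processing (x axis) in DTC, DTEC and KO. Filled points were called by edgeR at an adjusted p under 0.05 and open points were not, and CTSS in DTC is the largest at 5.00.

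Of 8 turnover and transport genes, 3 rose, 2 fell and 3 were not called in DTC, 3 rose, 1 fell and 4 were not called in DTEC, and 1 was called in KO, CD82 (higher, 0.62, edgeR adjusted p = 0.0205), a tetraspanin of class II compartments named after its values were seen. Medians were 0.06 in DTC and 0.22 in DTEC, against 0.06 and 0.02 over all tested genes. Of 12 relatives of CIITA and chromatin regulators of its promoter, 3 rose and 9 fell in DTC (median -0.77, against 0.06). In DTEC 1 rose, 5 fell and 6 were not called (median -0.27, against 0.02), and none was called in KO. Over all tested genes 34.0% were called higher and 33.3% lower in DTC, 26.0% and 26.3% in DTEC, and 2.76% and 1.55% in KO. The list mixes repressors with coactivators, so its counts have no single meaning for CIITA.

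The genes whose log2 CPM followed CIITA most closely over the 12 libraries, among tested genes outside the lists with a mean of at least 1 CPM, were HINT3 (Pearson r 0.939), HFE (0.938), USP33 (0.937), HIBADH (0.935) and NNMT (0.932). CD74 had r = 0.935 with CIITA, HLA-DMB 0.912 and HLA-DMA 0.909. For CD74 the closest were RAB8B (0.981), NNMT (0.935), CFI (0.935), AKR1B15 (0.931) and TMOD1 (0.931). NNMT, nicotinamide N-methyltransferase, was on both lists, at 1.31 ± 0.372 CPM (SD, n = 3) in DTC and 3.82 ± 2.83 CPM in DTEC, against 0.0433 ± 0.0521 CPM in untreated WT and 0.245 ± 0.0633 CPM in KO. The points of such a correlation share the 4 groups and the same libraries, and it includes the differences between group means.

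Markers of other cells that carry class II were read in the same libraries. Of 16 markers of blood and antigen-presenting cells, MS4A1, CD79B, FCER1A, CD1C, CLEC9A and CD2 were at 0 in all 12 libraries, and PTPRC, the pan-leukocyte CD45 gene, was at most 0.147 CPM. The summed level of the list was 59.8 to 79.3 CPM in DTC and 38.5 to 45.8 CPM in DTEC, against 28.6 to 35.9 CPM in untreated WT. In KO it was 28.9 to 32.7 CPM. CD68, named after its values were seen, made up most of this sum in each group. Its mean was 46.4 CPM in DTC, 37.3 in DTEC, 29.8 in untreated WT and 27.5 in KO. Of the 16 markers, 6 were tested, of which 6 rose in DTC, 2 in DTEC and 1 in KO. Over all tested genes 34.0%, 26.0% and 2.76% were called higher in these groups. Since the filter keeps a gene that is high in only some groups, these are not counts over all 16. One that rose in DTC was CSF1R, at 10.8, 7.74 and 10.2 CPM against 0.627, 0.236 and 0.288 CPM in untreated WT. The part of these genes in the class II result was not tested. Defining B-cell, dendritic-cell and T-cell genes were thus at 0 in the libraries where CD74 was highest.

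Of 9 markers of alveolar type 2 cells, SLC34A2 was at 0 in all libraries and SFTPC was at most 0.088 CPM. Their sum was 11.2 to 13.1 CPM in untreated WT. It was 21.4 to 32.5 CPM in DTC and 25.9 to 33.5 CPM in DTEC, and KO had 23.0 to 24.2 CPM. Of the 9, 6 were tested: 5 rose and 1 fell in DTC, 3 rose in DTEC and 2 rose in KO. Over all tested genes 34.0% were called higher and 33.3% lower in DTC, 26.0% higher in DTEC and 2.76% higher in KO. The filter limits these counts in the same way. SFTPB, which encodes surfactant protein B, fell in DTC (-4.32, edgeR adjusted p = 1.09e-06) and rose in DTEC (3.23, edgeR adjusted p = 2.62e-07) and KO (2.09, edgeR adjusted p = 0.000398). Their part in the class II result was not tested. The 8 epithelial markers of the line summed to 7080 to 7787 CPM in DTC and to more than that in every other library. Among them NKX2-1, a transcription factor of lung epithelium, had 2, 1 and 0 counts in untreated WT, at most 2 counts in any DTEC or KO library and 9, 15 and 12 counts in DTC, where it was called higher (at least 3.96-fold, edgeR adjusted p = 0.00276).

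Some counts can include reads of overlapping genes, because the strand setting of the counting is not given in the sources used here. HLA-DMA overlaps BRD2 on the opposite strand, which had up to 7642 counts, and BRD2 changed by -0.49 in DTC and -0.23 in DTEC while HLA-DMA rose. CIITA overlaps DEXI on the opposite strand, which had up to 915 counts and changed by -0.77 in DTC and -0.36 in DTEC. HLA-DPA1 and HLA-DPB1 overlap each other on opposite strands. CD74 carried decimals in 11 of 12 deposited values, CIITA in 4 and HLA-DMB in 2, so these values are estimates and not whole reads, and the other 7 genes had whole values only.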

How the data were processed

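The authors deposited expected counts per gene, estimated counts not scaled to depth, for 12 PC9 RNA-seq libraries, made with tools among RSEM 1.3.1, Bowtie2 2.5.2 and DESeq2 1.40.2 on GRCh38 per the submitters' processing notes. The annotation release and strand setting are not given in the sources used here. Per the labels' protocols libraries were made with a stranded polyA kit and read as 101 bp pairs. Counts were rounded and fitted in R 4.3.3 with edgeR 4.0.16 (limma 3.58.1): filterByExpr, TMM scaling, 1 mean per group over all 12 libraries, robust quasi-likelihood F tests and Benjamini-Hochberg adjustment over 17115 genes, called at an adjusted p under 0.05. The method was tested on simulated data. CPM uses the TMM-scaled totals. Intervals are 95% t intervals, and floors and bounds cover counting error only, since reads carried no molecular identifiers. Symbols were found for 62700 of 62754 identifiers, and coordinates come from GENCODE 29 on GRCh38 (58261 identifiers). Promoters are RefSeq's. Alternatives were DESeq2 1.42.0, other scaling, other filters, a fit of the 6 libraries compared, a replicate block, and leaving out each library. Groups follow the labels, and 0 columns of other samples were present. Named genes were all 10 members, 5 other class II loci (HLA-DPB2 was named besides, from the list of loci), 15 pathway genes picked by role (1 is not reported here), and the 5 genes most correlated with CIITA and with CD74. The members and lists were chosen with earlier results of these data known.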

Additional observations from a re-analysis of the deposited data

How the results depend on the processing

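The direction and call of CIITA, CD74 and HLA-DMA in DTC and in DTEC against untreated WT held in all 21 alternatives, and those of HLA-DMB in the 19 that tested it. The HLA-DMB test was lost with a filter at a mean of 1 CPM and, against untreated WT, when only 6 libraries were fitted. In DTEC against DTC, 1 gene was called without a low-count filter (CD74), and leaving out 1 library gave 0 to 2. There HLA-DMA turned to -0.000924 with library totals alone and to -0.415 without DTEC replicate 1, where HLA-DMB turned to -0.299 and CIITA to -0.015. The highest values with 1 library left out were 0.437, 1.31 and 1.17 for these genes, all without DTEC replicate 3. In KO, 2 were called without a low-count filter and 2 with only 6 libraries (HLA-DMA and CD74), 1 by DESeq2 (HLA-DMA), and 0 to 1 when 1 library was left out. HLA-DMB in KO, with 1 read per group, had a lowest value of -1.86 (KO replicate 1 left out) and a highest of 1.89 (untreated WT replicate 3 left out), and was -0.408 and -0.344 when the first or the second untreated WT library was left out. The count of all genes called in KO, 738, became 1147 without the filter, 2656 with 6 libraries and 321 to 1520 when 1 library was left out. The cause was not tested for these. With a replicate block 4, 4, 0 and 0 tested members were called in DTC, DTEC, DTEC against DTC and KO, the same counts as without it. Same-numbered libraries had correlations of -0.03 to 0.179 over 18 pairs (mean 0.06), 4 of them over 0.1. Differently numbered libraries had -0.187 to 0.118 over 36 pairs (mean -0.03), 2 of them over 0.1. Same-numbered libraries were thus slightly more alike on average. All these correlations were low, and the numbers were not taken to pair the samples. Depth limits the 6 peptide-presenting chains, since 3 counts equal 0.0824 to 0.115 CPM.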

Other observations

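Among regulators of the class II pathway, PRDM1, which encodes the CIITA repressor Blimp-1, rose with CIITA, from 1.42 ± 0.27 CPM (SD, n = 3) in untreated WT to 13.3 ± 3.23 in DTC and 8.51 ± 0.892 in DTEC (log2 fold changes 3.23 and 2.59, edgeR adjusted p = 1.05e-08 and 2.84e-07). MARCHF1, a ubiquitin ligase that removes class II molecules from the surface, rose from 0.159 ± 0.0835 CPM to 0.998 ± 0.342 and 1.67 ± 0.18 (2.60 and 3.33, edgeR adjusted p = 0.000613 and 0.000116). NLRC5, the class I counterpart of CIITA, rose in DTC (0.48, edgeR adjusted p = 0.00177) and fell in DTEC (-0.86, edgeR adjusted p = 2.95e-05). The cofactor CARM1 (-2.24 and -0.90) and the DNA methyltransferase DNMT1 (-1.51 and -0.96) fell in both, with edgeR adjusted p of at most 1.59e-05. These genes were picked from the fixed lists after their values were seen.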
